A study of Mus musculus with 8 samples.

Results

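Described here are the solute carrier (Slc) genes expressed in mouse primary hepatocytes, measured by RNA-seq after 24 h of culture on collagen-coated polyacrylamide hydrogels of 1 kPa (soft) or of 20 kPa (stiff). They were chosen by name and by level. Each is annotated as protein-coding, has a symbol made of Slc, a number, the letter a and a number, and has a mean raw count of at least 50 over the 8 libraries. Of 56748 genes listed, 337 met the naming rule. Of these, 155 lay below the minimum, 37 of them with no count in any library, and Slc10a1 and Slc27a5 were left out, which left 180 members. The mean count was the only measured value used in the choice. It was taken over all groups together, so a gene near the minimum can pass through 1 group where it is high. Just inside the minimum lay Slc22a30 with a mean of 51.4 counts, Slc37a2 with 52.2 and Slc10a5 with 54.2, and just outside it lay Slc18a2 with 48.4, Slc25a36 with 47.8 and Slc1a5 with 46.5. Slc10a5 had 113 and 66 counts in wild-type cells on soft hydrogels and 22 to 58 elsewhere. Slc22a30 had 77 and 87 in wild-type cells on stiff hydrogels and 28 to 64 elsewhere. Each passed the minimum only through the group where it was high, so its calls below in comparisons with that group are not independent of the choice. All 180 members passed the filter on low counts and entered the tests.

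Solute carriers are membrane proteins that move small molecules across the plasma membrane or the membranes of organelles, and their gene families are numbered by sequence and substrate. In the liver they take amino acids, sugars, bile acids, drugs and metals from blood or return them to it, and the family numbered 25 exchanges metabolites across the inner mitochondrial membrane. Many move a substrate in exchange for another solute or together with sodium ions or protons, so the direction of transport depends on gradients, and the amount of mRNA does not by itself give the rate of transport.

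The mice carried floxed Yap and Taz alleles (Yap fl/fl;Taz fl/fl) in every group, and were 7 to 8 weeks old when given virus. The paper describes the line as also bred with a tdTomato reporter (ROSA26-LSL-tdTomato) that Cre switches on. YAP and TAZ are the transcriptional co-activators at the end of the Hippo pathway and carry signals of matrix stiffness to the nucleus. AAV8-TBG-Cre, a virus whose hepatocyte-specific thyroxine-binding globulin promoter drives Cre recombinase, gave the knockout group (Yap/Taz HepKO), and AAV8-TBG-Null, which carries no Cre, gave the wild-type (WT) group. Hepatocytes were isolated by collagenase perfusion 10 days later. The descriptions of the series disagree on the sex of the mice. Each of the 4 groups had 2 libraries, and nothing states that the 2 came from separate mice or cultures, so p-values measure only the spread between these libraries, which may be technical. Because Cre acts in hepatocytes, any other cell type in the culture keeps its Yap and Taz alleles.

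Library totals ranged from 18324083 to 26442310 counts. Yap1 had 1720 to 2913 counts in the WT libraries and 606 to 747 in the knockout libraries, and Wwtr1, which encodes TAZ, had 748 to 1325 and 277 to 410. The labelled cell type was checked on hepatocyte markers, whose summed level was 96069 to 98167 CPM (counts scaled to 1e6 per library) in WT and 70310 to 71025 in the knockout, most of it from Alb (albumin). Of the 19 hepatocyte markers tested, 7 were lower and 1 was higher on stiff in WT (median log2 fold change -0.41), where all genes tested gave 9.26% lower and 10% higher. None of the 19 was called between hydrogels in the knockout. Markers of other liver cells summed to less than those of hepatocytes and shifted between groups, not all in the same direction. On soft and then stiff hydrogels, the 15 Kupffer cell markers summed to 105 to 109 and 72.3 to 78.0 CPM in WT and to 160 to 165 CPM in the knockout. The 15 endothelial markers summed to 121 to 123 and 86.7 to 88.4 CPM in WT and 155 to 177 in the knockout, and the 15 stellate cell markers to 45.5 to 48.1 and 37.9 to 39.2 in WT and 63.3 to 67.9 in the knockout. The 15 cholangiocyte markers summed to 733 to 760 and 911 to 916 CPM in WT and 585 to 617 in the knockout, most of it from Spp1 and Cldn4, with Cftr at 0 in every library. Of the 10 cholangiocyte markers tested, 3 were higher and 3 lower on stiff in WT (median log2 fold change 0.05). Of the 12 stellate cell markers tested, 2 were higher and 4 lower there (median -0.46). Over all genes tested, 9.26% were lower and 10% higher. Of the 15 leukocyte markers, which summed to at most 3.85 CPM in any library, Cd3e, Gzma and Klrb1c were at 0. The part of these shifts in the results on the members was not tested. In bulk samples, fewer cells of a type and less RNA per cell cannot be told apart.

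Below, a member's level in a library is given in CPM after TMM scaling (normalised CPM). The members' differences between groups are log2 fold changes from edgeR's quasi-likelihood test, with p-values adjusted over all 14279 genes tested by the Benjamini-Hochberg method. That test gives no standard error (SE). The SE printed is the absolute log2 fold change divided by the square root of the test's F statistic. A gene was called where its adjusted p was under 0.05 and its absolute log2 fold change over 0.5. Levels of different genes are compared only after division by the gene length in the table, as RPKM. Of the members, 37 share sequence with another gene or overlap it, so that reads could have been split or shared in counting, and their values are less certain. Those described below are marked as such at least once, though not at every mention.

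The members differed widely in level. Their mean RPKM over the 8 libraries ran from 0.200 for Slc1a2, a glutamate transporter, to 278 for Slc25a5, a mitochondrial ADP/ATP carrier, with a median of 6.10. The 10 members with the highest RPKM held 46.6% of the summed RPKM of the superfamily. After Slc25a5, which shares 34.7% of its 64-base windows with other genes, came Slc25a39, the mitochondrial glutathione carrier (201 RPKM), Slc48a1, a haem transporter (191), Slc3a2, the heavy chain of several amino acid exchangers (189.6), and Slc25a1, the citrate carrier (152). The zinc transporters Slc39a1, for which shared sequence makes the value less certain, and Slc39a4 followed at 97.4 and 95.7 RPKM. The phosphate carrier Slc25a3 stood at 71.1, the amino acid transporter Slc38a4 at 55.7 and the liver-enriched mitochondrial carrier Slc25a47 at 54.3. By class, the median was highest in the 5 amine and osmolyte transporters, at 12.2 RPKM, and in the 33 mitochondrial carriers, at 11.1, and lowest in the 4 nucleoside transporters, at 1.20.

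**Figure D1:**
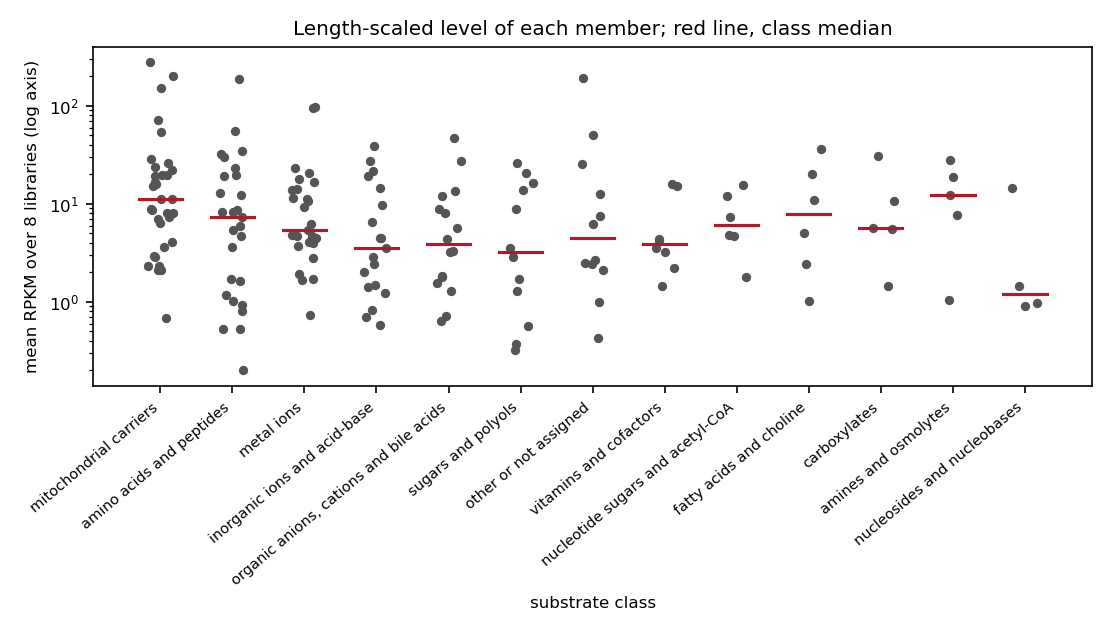
Mean RPKM over 8 libraries (log axis) of each of the 180 members, by substrate class on the x axis; points are genes and red lines are class medians. The classes overlap over most of their ranges, from 0.200 to 278 RPKM.

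The first question was how the stiff hydrogel changed these genes in WT hepatocytes. In WT cells 44 of the 180 members (24.4%) were lower on the stiff hydrogel and 12 (6.67%) were higher. The background over the 14279 genes was 9.26% lower and 10% higher. Here and below, the background of all genes tested also holds genes under the minimum mean count set for the members. The shares of members and of all genes are therefore not matched for level, and the part of this in their differences was not tested. The median log2 fold change of the members was -0.14, against -0.0087 for all genes tested, and 116 members lay below 0 and 64 above it. The summed level of the members was 11898 ± 120.0 CPM (SD, n = 2) on soft and 10097 ± 10.4 CPM on stiff hydrogels. The 2 soft and the 2 stiff libraries did not overlap for 141 of the 180 members (78.3%), the 56 called among them, where the background over all genes tested was 68.9%. In the knockout they did not overlap for 81 members (45%), against 38.1% of all genes.

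In the knockout cells the same step in stiffness gave no call among the members, in either direction, under edgeR or DESeq2. The background was 0.014% higher and 0.007% lower. The members' log2 fold changes ran from -0.32 to 0.47, the smallest adjusted p was 0.597, and 15 members had an unadjusted p under 0.05, 13 of them higher and 2 lower. The median SE of a member's log2 fold change was 0.0836 in the knockout and 0.0864 in WT. Both come from 1 fit in which the groups share the spread of each gene, so they do not compare the noise of the genotypes. The 44 members that fell in WT had a median log2 fold change of -0.70 there and of 0.051 in the knockout. The 12 that rose had medians of 0.98 and 0.017. Both sets were picked by their WT values, so the WT medians are set in part by that choice and the knockout medians are not.

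**Figure D2:**
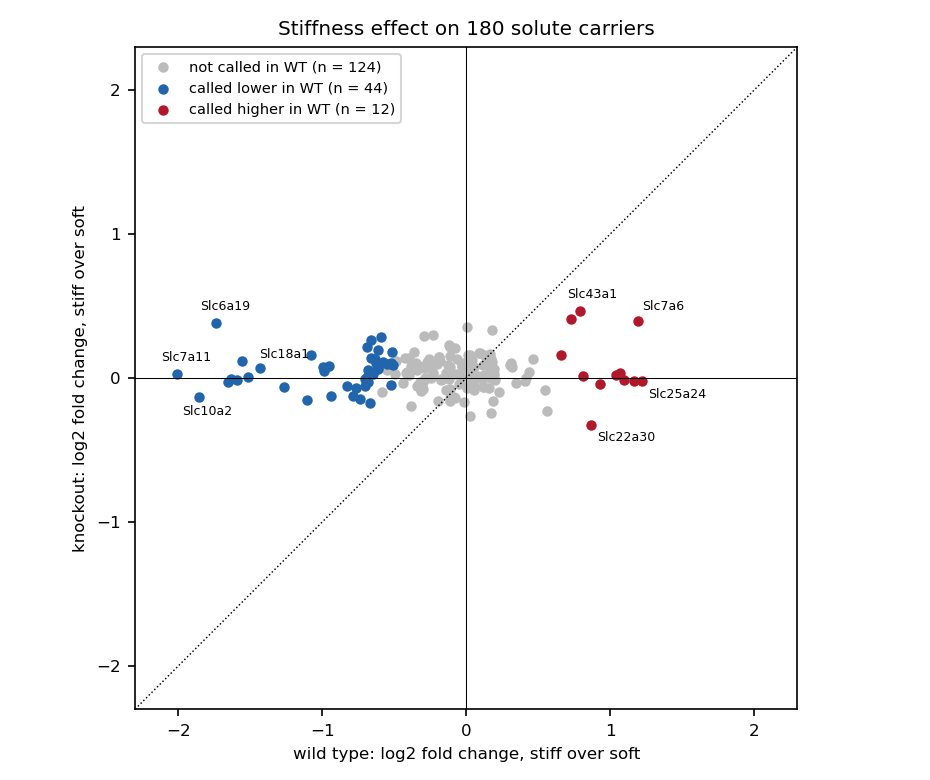
Log2 fold change, stiff over soft hydrogel, of the 180 members in wild-type cells (x axis) and knockout cells (y axis), coloured by the call in wild-type cells; the dotted line marks equal change. Values spread from -2.01 to 1.22 along the x axis and from -0.32 to 0.47 along the y axis.

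Whether the stiffness response itself differed by genotype was tested with the interaction term, the knockout response minus the WT response. It was called above 0 for 44 members (24.4%) and below 0 for 8 (4.44%), where all genes gave 8.64% and 8.21%. Of the 44 members lower on stiff in WT, 41 had a called interaction, and of the 12 higher there, 8 had one. The WT response is part of the interaction, so the interaction and the WT response are not separate evidence.

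The substrate classes that held the most members that fell in WT cells were the amino acid and peptide transporters with 9 of 27 and the organic anion, organic cation and bile acid transporters with 9 of 16. Mitochondrial carriers followed with 7 of 33 and metal ion transporters with 5 of 27. The 12 members that rose were 3 metal ion transporters, 3 mitochondrial carriers, 2 amino acid transporters and 1 each of the amine and osmolyte, fatty acid and choline, organic ion and unassigned classes. Over all genes 9.26% were lower and 10% higher. The rises among the 27 metal ion transporters and among the 33 mitochondrial carriers were close to that share. None of the 6 nucleotide sugar and acetyl-CoA transporters was called, although Slc33a1 was past the fold threshold (-0.51) and called without the second WT soft library.

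**Figure D3:**
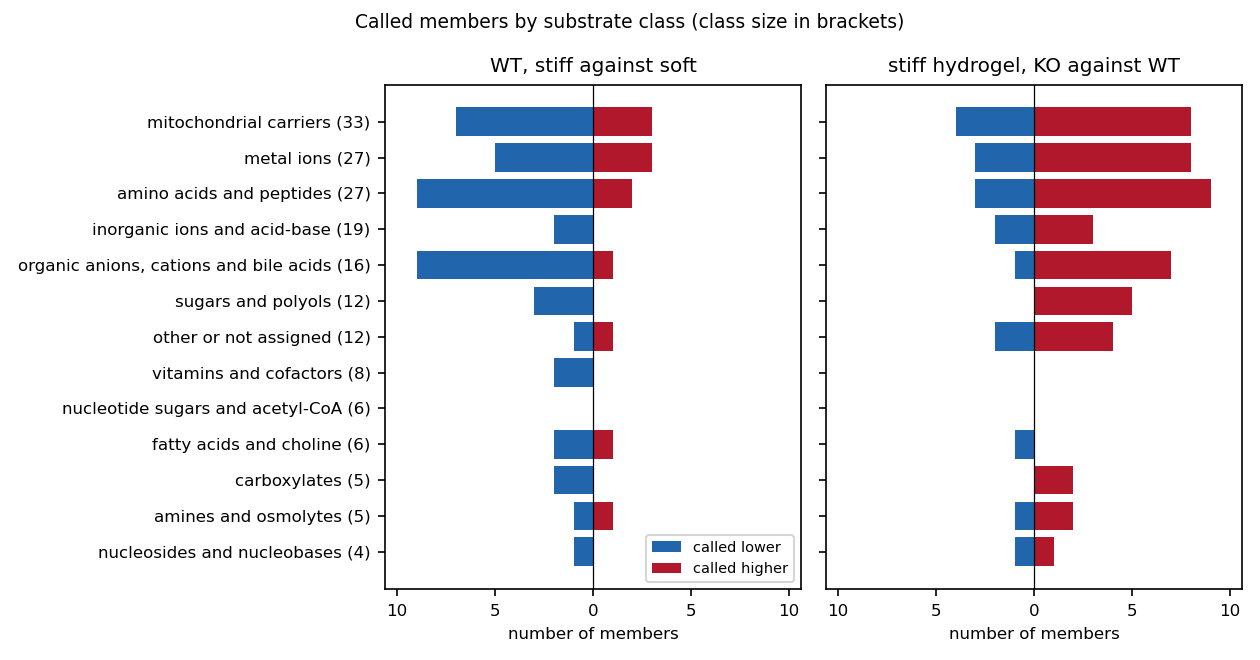
Number of members called lower (blue, to the left) and higher (red, to the right) in each substrate class, for wild-type cells on stiff against soft hydrogel (left) and for knockout against wild-type cells on the stiff hydrogel (right); class size is in brackets. Blue bars reach 9 members on the left, for amino acids and peptides and for organic anions, cations and bile acids, and both panels use the wild-type stiff libraries.

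Amino acid transporters were led by Slc7a11, which encodes xCT, the light chain of the exchanger that imports cystine for glutamate and so supplies cysteine for glutathione. Slc7a11 stood at 415 and 395 CPM in the WT soft libraries, 98.8 and 103 in WT stiff, 580.0 and 592 in knockout soft and 599.7 and 597 in knockout stiff. The WT stiff libraries were the lowest and no pair of WT and knockout groups overlapped. It fell by 2.01 on the log2 scale (SE 0.0423, adjusted p = 1.36e-16 by edgeR) on the stiff hydrogel in WT, a 4.02-fold lower level and the largest fall of any member, while the knockout response was 0.03. Slc3a2, the CD98 heavy chain that pairs with xCT and with several other light chains, stood at 560.3 and 577 CPM in WT soft, 373 and 372 in WT stiff, 861 and 837 in knockout soft and 895 and 878 in knockout stiff libraries. It fell by 0.61 (SE 0.0356, adjusted p = 1.26e-10 by edgeR) and, like xCT, was lowest in WT stiff and highest in the knockout. A further partner of CD98, the large neutral amino acid transporter Slc7a5, was at 32.4 and 35.0 CPM in WT soft and 26.1 and 24.5 in WT stiff and missed the fold threshold (log2 fold change -0.41, adjusted p = 0.0005 by edgeR). Unlike Slc7a11 and Slc3a2, Slc7a5 was not higher in the knockout. Its log2 fold change against WT was -0.49 on soft and -0.03 on stiff hydrogels, neither of them called.

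The promoter of Slc7a11 is shown because the gene fell most and because its known amino acid response elements, bound by ATF4 in the response to amino acid shortage, can be read in it. Capitals mark TGATGCAA, the core of that element, and its reverse complement TTGCATCA, in the 250 bases before the start of the gene on its own strand (RefSeq, GRCm38.p6, chr3:50443614-50443863, minus strand).
Slc7a11: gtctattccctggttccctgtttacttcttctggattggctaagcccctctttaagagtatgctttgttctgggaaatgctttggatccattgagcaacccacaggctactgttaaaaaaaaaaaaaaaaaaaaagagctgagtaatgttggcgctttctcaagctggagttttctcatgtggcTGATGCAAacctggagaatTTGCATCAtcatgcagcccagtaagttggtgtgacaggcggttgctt
The 8 letters were searched on both strands, and were picked after the values of Slc7a11 were known. They occurred in this window in 0.918% of 27025 genes and in 4 of the 135 members with a promoter in the table, Slc7a11 with 2 copies and Slc7a7, Slc17a1 and Slc50a1 with 1 each. A match is a description of the letters, not evidence of binding.

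Of 20 genes of amino acid synthesis and the ATF4 response, edgeR called none between hydrogels in the knockout. In WT 7 were lower and 1 was higher on the stiff hydrogel, where all genes gave 9.26% lower and 10% higher. Those that fell included Trib3, a target of ATF4 (log2 fold change -1.01), the transcription factor Ddit3 (-0.71), the asparagine synthetase Asns (-0.66) and Chac1, which degrades glutathione (-0.74). Cbs, which starts the conversion of homocysteine to cysteine, rose (0.65). Atf4 itself had a log2 fold change of -0.32 and was not called. Knockout against WT gave 2 of the 20 higher and 2 lower on soft (median log2 fold change -0.11). On stiff it gave 5 higher and 3 lower (median 0.24). All genes gave 2.02% higher and 4.65% lower on soft, and 13.7% and 15% on stiff. Slc7a11 was called higher in the knockout on both hydrogels. The part of ATF4 in its values was not tested.

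Slc16a10, which carries aromatic amino acids and thyroid hormones, was at 163 and 181 CPM in WT soft, 51.7 and 58.9 in WT stiff, 231 and 231 in knockout soft and 228 and 231 in knockout stiff libraries. It fell by 1.64 (SE 0.0628, adjusted p = 4.2e-13 by edgeR) in WT and had a log2 fold change of -0.01 in the knockout, where all 4 values exceeded every WT value. Sodium-coupled transporters of neutral amino acids differed among themselves. Slc38a4, at 243 and 252 CPM in WT soft and 150.2 and 157 in WT stiff, fell by 0.69 (SE 0.0445), and in the knockout it held 268 and 279 on soft and 277 and 273 on stiff hydrogels. Slc38a3, a glutamine transporter, had a log2 fold change of -0.40 in WT, below the fold threshold, and was lower in the knockout than in WT on the soft hydrogel, at 151 and 144 against 242 and 249 CPM. Slc38a2, at 175 and 183 CPM in WT soft and 143 and 145 in WT stiff, had a log2 fold change of -0.31 and was not called.

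The other amino acid transporters that fell in WT were Slc6a19 (-1.74), a neutral amino acid carrier best known from gut and kidney that was below 5 CPM in every library, the glycine transporter Slc6a9 (-0.998), Slc43a2 (-0.95), the serine and alanine exchanger Slc1a4 (-0.52) and the lysosomal proton-coupled carrier Slc36a1 (-0.52). Slc6a9 and Slc43a2 share sequence or overlap other genes. For Slc1a4 the fold was -0.47 without the first WT soft library and -0.43 without the second WT stiff library, and for Slc36a1 it was -0.44 without the second WT soft library and -0.45 without the first WT stiff library, all under the fold threshold.

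Only 2 members of the class rose, both under 10 CPM in every library. Slc7a6, a light chain that exchanges arginine for neutral amino acids, was at 3.31 and 3.61 CPM in WT soft, 7.52 and 8.28 in WT stiff, 1.37 and 1.69 in knockout soft and 1.59 and 2.42 in knockout stiff libraries, a rise of 1.19 (SE 0.21, adjusted p = 0.000126 by edgeR) in WT. Slc43a1 rose by 0.79 at 2.67 to 5.94 CPM in WT, a call lost without the second WT soft library (0.57, adjusted p = 0.0765) or the second WT stiff library (0.74, adjusted p = 0.0563). The 16 members of the class that were not called in WT had log2 fold changes from -0.55 to 0.41, among them the arginine transporter Slc7a2 at -0.32 and the glutamate transporter Slc1a2 at -0.55. Summed over its 27 members, the class stood at 2596 ± 35.2 CPM (SD, n = 2) in WT soft and 1660.2 ± 4.85 in WT stiff cells. In the knockout the sum was 3069 ± 7.74 on soft and 3150.0 ± 20.6 on stiff hydrogels.

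Transporters of organic anions, organic cations and bile acids had the lowest class median in WT, -0.63, against -0.04 in the knockout. Slc10a2, the sodium-dependent bile acid transporter best known from ileum and bile duct cells, had 14.8 and 11.7 CPM in WT soft, 3.91 and 3.45 in WT stiff, 18.3 and 19.6 in knockout soft and 16.4 and 18.3 in knockout stiff libraries. It was lowest in WT stiff and the WT and knockout values did not overlap on either hydrogel. The fall in WT was 3.60-fold (log2 fold change -1.85, SE 0.15, adjusted p = 1.37e-08 by edgeR). The cholangiocyte markers, of which 3 rose and 3 fell on stiff in WT, are given above, and their part in the values of Slc10a2 was not tested. Slc17a4, an organic anion transporter, was at 82.5 and 79.2 CPM in WT soft and 27.9 and 25.6 in WT stiff and fell by 1.59 (SE 0.0620, adjusted p = 4.86e-13 by edgeR); the knockout held 90.4 and 88.6 on soft and 90.0 and 87.1 on stiff hydrogels.

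Others of the class that fell were the phosphate and urate transporter relatives Slc17a1 (-0.79), Slc17a2 (-0.67) and Slc17a3 (-0.74), the ergothioneine transporter Slc22a4 (-0.59), Slc22a27 (-0.83) and Slc10a5 (-1.56), of which Slc22a27 and Slc10a5 share sequence with other genes. Without the first WT stiff library Slc17a3 was at -0.497 (adjusted p = 0.0429), just under the fold threshold, and Slc17a1 lost its call without the second WT soft (-0.54, adjusted p = 0.0916) or the second WT stiff library (-0.66, adjusted p = 0.0679).

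Efflux and carnitine transporters of the class were not called in WT. Slc47a1, the exporter MATE1 at the canalicular membrane, had a log2 fold change of 0.32 (adjusted p = 0.0119 by edgeR), the carnitine transporter Slc22a5, whose sequence is partly shared, -0.11, and the organic anion transporter Slc22a7, near 3 CPM, -0.59 (adjusted p = 0.0969). Without the first WT soft library Slc22a7 was at -0.83 and was called. Slc22a30, the only riser of the class, shares 32.1% of its windows with other genes and lay at 1.94 to 4.42 CPM in WT; its call (0.86) was lost under DESeq2 (adjusted p = 0.0599) and without the second WT soft (0.72, adjusted p = 0.069) or second WT stiff library (0.74, adjusted p = 0.0959). The class summed to 484 ± 3.09 CPM (SD, n = 2) in WT soft, 330.0 ± 6.82 in WT stiff, 522 ± 7.59 in knockout soft and 521 ± 1.51 in knockout stiff cells.

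**Figure D4:**
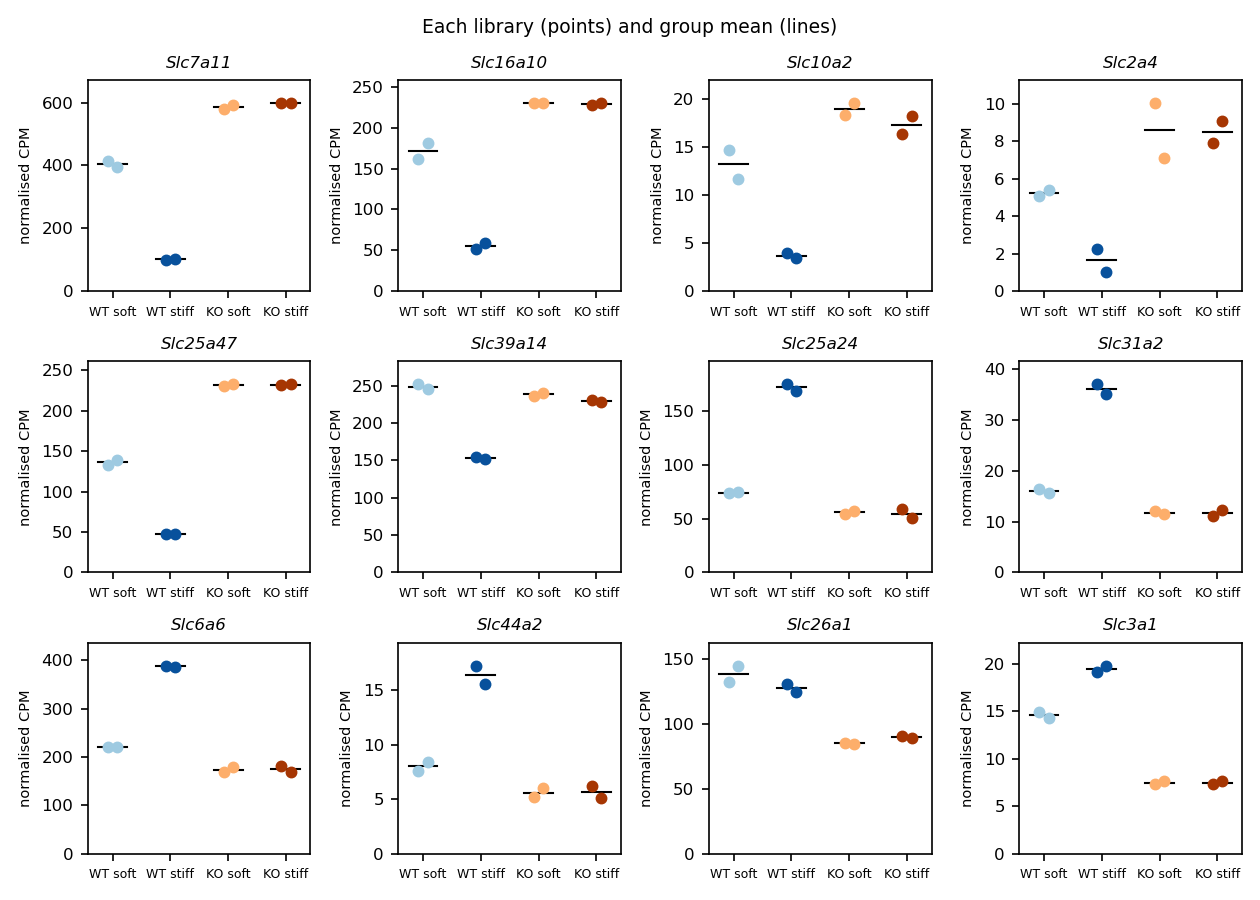
Normalised CPM of 12 members in each of the 8 libraries (points) with the mean of the 2 libraries of a group (lines); each y axis starts at 0 and has its own scale. In the first 6 panels the wild-type stiff libraries are lowest, as for Slc7a11 at 98.8 and 103 CPM, and in the next 4 they are highest, as for Slc25a24 at 175 and 169 CPM; Slc26a1 and Slc3a1 are lower in both knockout groups.

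Sugar transporters gave 3 falls and no rise in WT. Slc2a4, the insulin-responsive glucose transporter GLUT4 of muscle and fat, was at 5.08 and 5.39 CPM in WT soft, 2.27 and 1.02 in WT stiff, 10.1 and 7.11 in knockout soft and 7.92 and 9.09 in knockout stiff libraries. It was low throughout, lowest in WT stiff, and fell by 1.66 (SE 0.27, adjusted p = 8.79e-05 by edgeR). GLUT2 (Slc2a2), the main glucose transporter of hepatocytes, was at 189 and 187 CPM in WT soft, 152 and 153 in WT stiff, 132 and 135 in knockout soft and 120.3 and 133 in knockout stiff libraries. Its WT log2 fold change of -0.30 (adjusted p = 0.00012) missed the fold threshold, and the knockout values lay below all WT values. GLUT1 (Slc2a1), widespread in dividing cells, had a log2 fold change of 0.18 in WT and was not called in any comparison.

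Slc37a4, which carries glucose 6-phosphate into the endoplasmic reticulum for the last step of glucose release, was at 43.2 and 46.0 CPM in WT soft and 24.4 and 21.9 in WT stiff and fell by 0.94 (SE 0.0765, adjusted p = 1.32e-08 by edgeR). In the knockout it held 48.8 and 44.7 on soft and 43.2 and 42.7 on stiff hydrogels, so the WT stiff values lay below the other 6. The urate transporter Slc2a9 was not called in WT (-0.23), and Slc2a8 fell by 0.58, or by 0.47 without the second WT soft library. Of the 9 sugar transporters not called, the log2 fold changes ran from -0.49 to 0.18.

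Monocarboxylate and creatine carriers gave 2 falls in WT and no rise. Slc16a1, which encodes MCT1 for lactate and pyruvate, was at 132 and 138 CPM in WT soft and 123 and 117 in WT stiff libraries and was not called (-0.17, adjusted p = 0.00904 by edgeR). Slc16a12, a creatine transporter, fell by 1.11 (SE 0.10) from 26.5 and 24.99 CPM in WT soft to 10.9 and 13.0 in WT stiff libraries. Slc16a7, which encodes MCT2, fell by 0.76 (SE 0.10). The sodium-coupled creatine transporter Slc6a8 was lower on stiff in WT, at 73.1 and 74.3 against 95.7 and 103 CPM, but missed the fold threshold (-0.43, adjusted p = 3.12e-06).

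Among carriers of the inner mitochondrial membrane, 7 fell and 3 rose in WT, the rises being close to the share of all genes. Slc25a47, whose expression is known to be largely restricted to liver, was at 133 and 139 CPM in WT soft, 47.5 and 47.8 in WT stiff, 231 and 233 in knockout soft and 232 and 233 in knockout stiff libraries. The 4 knockout values were within 3 CPM of each other and above all WT values. It fell by 1.51 (SE 0.0493, adjusted p = 4.52e-14 by edgeR) in WT. The branched-chain amino acid carrier Slc25a44 (-0.67), the glutamate carrier Slc25a22 (-0.66), the dicarboxylate carrier Slc25a10 (-0.63) and the pyrimidine nucleotide carrier Slc25a33 (-0.61) also fell, the last pair with sequence shared or overlapping. Slc25a45 (-0.52) and the iron carrier Slc25a28 (-0.51) lay at the fold threshold, with -0.50 and -0.46 without the second WT soft library and -0.47 for both without the first WT stiff library. Slc25a28 was also at -0.496 under DESeq2 and with no filter on low counts.

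The 3 mitochondrial carriers that rose were Slc25a24, Slc25a25 and Slc25a4. Slc25a24 and Slc25a25 are calcium-regulated carriers that exchange ATP-Mg for phosphate. Slc25a24 was at 73.4 and 74.3 CPM in WT soft, 175 and 169 in WT stiff, 54.0 and 57.4 in knockout soft and 59.0 and 50.5 in knockout stiff libraries. This was the largest rise of any member, 2.33-fold (log2 fold change 1.22, SE 0.0624, adjusted p = 2.05e-11 by edgeR), and the WT values lay above the knockout values on both hydrogels. Slc25a25 was at 22.6 and 20.8 CPM in WT soft, 40.8 and 42.2 in WT stiff, 14.4 and 13.5 in knockout soft and 14.6 and 12.6 in knockout stiff libraries, with the same order of groups (WT log2 fold change 0.93, SE 0.0905). A close relative of both, Slc25a23, was not called in WT (0.13).

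The ADP/ATP carriers differed. Slc25a4, the isoform of muscle and heart, rose by 1.10 (SE 0.0870, adjusted p = 9.38e-09 by edgeR), from 19.3 and 17.3 CPM in WT soft to 37.8 and 40.7 in WT stiff libraries, against 24.0 and 23.5 in knockout soft and 22.6 and 24.6 in knockout stiff. Slc25a5, the isoform prominent in dividing cells, held 439.9 and 418 CPM in WT soft and 446 and 445 in WT stiff libraries (0.05, SE 0.0381). The abundant carriers of citrate (Slc25a1, 329.8 and 338 CPM in WT soft and 339 and 328 in WT stiff) and phosphate (Slc25a3, -0.04) were not called in any comparison. Carriers of the urea cycle and fat oxidation were not called in WT either, with -0.39 for the ornithine carrier Slc25a15, 0.18 for the aspartate/glutamate carrier Slc25a13 and 0.16 for the acylcarnitine carrier Slc25a20, whose sequence is partly shared. The glutathione carrier Slc25a39 had a log2 fold change of -0.28.

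Metal ion transporters were called in both directions, the rises being close to the share of all genes. Slc39a14 (ZIP14), which brings zinc, manganese and non-transferrin iron into hepatocytes, was at 252 and 245 CPM in WT soft, 154 and 152 in WT stiff, 237 and 240.4 in knockout soft and 231 and 228 in knockout stiff libraries. It fell by 0.70 (SE 0.0426, adjusted p = 2.22e-10 by edgeR), and the WT stiff values stood apart below the other 6. The manganese exporter Slc30a10, at 5.74 and 5.55 CPM in WT soft and 2.60 and 2.08 in WT stiff, fell by 1.27 (SE 0.19), and the zinc exporters Slc30a1 and Slc30a4 fell by 0.70 and 0.65; Slc30a10 and Slc30a1 share sequence with other genes. Slc11a1, a metal transporter of macrophage phagosomes, fell by 1.08 from 7.55 and 6.72 to 2.75 and 4.06 CPM and was at 9.68 and 7.56 CPM in knockout soft and 10.0 and 9.29 in knockout stiff. The Kupffer cell markers moved in the same order (8 of 13 tested were lower on stiff in WT, none was higher, and none was called in the knockout), where all genes gave 9.26% lower and 10% higher in WT. The part of these markers in the values of Slc11a1 was not tested.

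Ferroportin and the iron and manganese transporter Slc11a2 were below the fold threshold in WT, ferroportin (Slc40a1) at -0.35 and Slc11a2 at -0.34. Copper transporters parted. Slc31a2, at 16.5 and 15.6 CPM in WT soft, 37.1 and 35.2 in WT stiff, 12.1 and 11.4 in knockout soft and 11.1 and 12.2 in knockout stiff libraries, rose by 1.17 (SE 0.0944, adjusted p = 1.22e-08 by edgeR) and was highest in WT stiff. Its relative Slc31a1, the high-affinity copper importer, had 103 and 102 CPM in WT soft and 83.1 and 90.5 in WT stiff libraries (-0.24, not called). Slc39a13, a zinc transporter of the secretory pathway, rose by 0.66 (SE 0.10), and Slc30a3, at 4.01 to 7.67 CPM in WT, rose by 0.73, or by 0.62 (adjusted p = 0.0548) without the second WT stiff library. The abundant zinc transporters Slc39a1 (0.20) and Slc39a4 (-0.27) were not called.

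Osmolyte and amine transporters held both directions in 5 genes. Slc6a6, the taurine transporter, was at 221 and 221 CPM in WT soft, 389 and 387 in WT stiff, 169 and 179 in knockout soft and 182 and 169 in knockout stiff libraries. The 2 WT stiff libraries stood above all others. It rose by 0.81 (SE 0.0462, adjusted p = 9.31e-11 by edgeR) and had the highest level per length of the 12 risers (28.3 RPKM). Slc18a1, a vesicular monoamine transporter at 1.88 to 8.25 CPM, fell by 1.44 (SE 0.20). The betaine and GABA carriers Slc6a12 and Slc6a13 were not called (-0.38 and 0.05).

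Fatty acid and choline transporters were also split. Slc27a2, which encodes FATP2, a long-chain fatty acid transporter and acyl-CoA synthetase, was at 183 and 191 CPM in WT soft, 97.4 and 91.4 in WT stiff, 128 and 128 in knockout soft and 133 and 132 in knockout stiff libraries. It fell by 0.99 (SE 0.0499, adjusted p = 1.78e-11 by edgeR), with the knockout values between those of WT soft and WT stiff; 12.5% of its windows are shared with other genes. Slc27a1 fell by 0.52, or by 0.47 without the second WT soft and 0.40 without the second WT stiff library, and Slc27a4 was not called (0.03). Slc44a2, a choline transporter, rose by 1.04 (SE 0.14), from 7.55 and 8.44 to 17.2 and 15.5 CPM, and was at 5.19 and 6.02 CPM in knockout soft and 6.23 and 5.09 in knockout stiff. Its relative Slc44a1 lay at -0.34 and was not called.

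Inorganic ion and acid-base transporters had 2 of 19 members called in WT, both lower, close to the 9.26% lower over all genes. The phosphate importer Slc20a1 fell by 0.69 (SE 0.0535), from 94.8 and 92.3 CPM in WT soft to 58.4 and 58.0 in WT stiff, and was at 143 and 139 in knockout soft and 142 and 133 in knockout stiff; 11.0% of its windows are shared with other genes. Slc24a3, a sodium, calcium and potassium exchanger, fell by 0.66. The anion exchanger Slc4a2 (0.16, partly overlapping or shared), the bicarbonate transporter Slc4a4 (0.00) and the sodium, potassium and chloride cotransporter Slc12a2 (-0.02) were not called in WT.

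Vitamin transporters that fell in WT were the ascorbate transporter Slc23a1 (-0.69, at 12.2 and 15.7 CPM on soft and 8.63 and 8.59 on stiff) and the lysosomal carrier Slc46a3 (-0.61), whose call was lost under DESeq2 (adjusted p = 0.136), without the second WT soft (-0.50, adjusted p = 0.133) and without the first WT stiff library (-0.46, adjusted p = 0.196). The transporters of folate (Slc46a1, 0.03), thiamine (Slc19a2, -0.13) and biotin and pantothenate (Slc5a6, -0.11, partly shared) were not called. The nucleobase transporter Slc43a3 fell by 0.63; without the second WT stiff library the value was -0.40 (adjusted p = 0.192), without the second WT soft library -0.53 (adjusted p = 0.0785), and under DESeq2 -0.62 (adjusted p = 0.0536). The nucleoside transporter Slc29a1 (-0.18) and the acetyl-CoA transporter Slc33a1 (-0.40), both with shared or overlapping sequence, were not called. The list was completed by 2 members without a clear substrate. Slc22a15 rose by 1.07 (SE 0.15), from 4.39 and 4.50 to 9.40 and 9.25 CPM, and Slc22a23 fell by 0.55 (SE 0.0479), from 163 and 172 to 113 and 116 CPM.

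**Figure D5:**
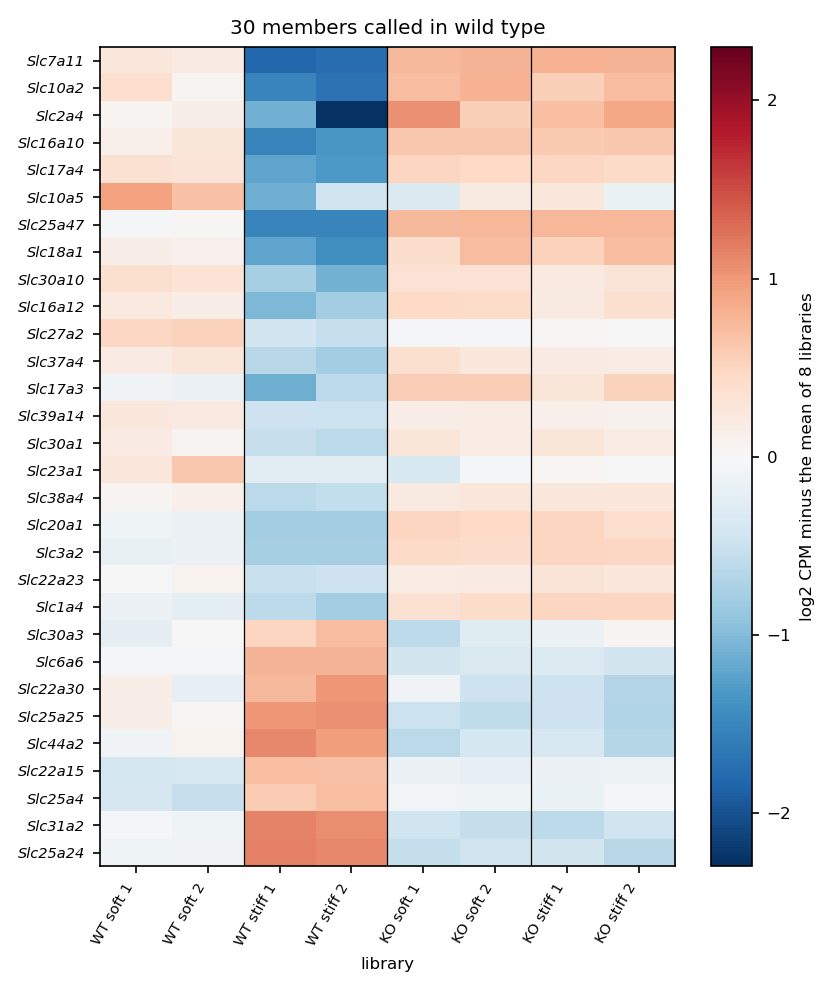
Log2 CPM of 30 described members called in wild-type cells, in each of the 8 libraries, minus the gene's mean over the libraries; blue is below and red above that mean, and genes are ordered by their wild-type log2 fold change. The 2 wild-type stiff columns are blue for the 21 members that fell and red for the 9 that rose.

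Among the DNA-binding partners of YAP and TAZ are the TEAD factors, whose binding motif holds the letters GGAATG, and the promoters of members that rose in WT were searched for them. The paper also reports that a YAP mutant unable to bind TEAD still repressed the nuclear receptor LXRα, a route that such a search does not cover. The letters, on either strand (reverse complement CATTCC), occurred in the 250 bases before the gene start in 14.4% of 27025 genes in RefSeq (GRCm38.p6), in 26 of the 135 members with an entry (19.3%), in 4 of 11 that rose (Slc22a15, Slc25a24, Slc25a25 and Slc43a1) and in 8 of 34 that fell. The 3 of the 4 with a mean of at least 100 counts are shown, each on its own strand, with the match in capitals, at chr3:109122899-109123148 (plus strand) for Slc25a24, chr2:32451471-32451720 (minus) for Slc25a25 and chr3:101924454-101924703 (minus) for Slc22a15.
Slc25a24: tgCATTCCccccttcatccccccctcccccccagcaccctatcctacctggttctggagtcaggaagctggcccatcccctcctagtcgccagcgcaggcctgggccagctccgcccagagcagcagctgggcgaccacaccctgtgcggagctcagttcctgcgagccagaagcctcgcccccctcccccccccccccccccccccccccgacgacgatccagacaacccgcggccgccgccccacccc
Slc25a25: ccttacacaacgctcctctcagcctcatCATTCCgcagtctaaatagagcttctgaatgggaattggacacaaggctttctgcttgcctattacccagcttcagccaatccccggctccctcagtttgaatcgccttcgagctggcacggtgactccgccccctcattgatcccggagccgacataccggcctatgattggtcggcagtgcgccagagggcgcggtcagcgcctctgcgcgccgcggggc
Slc22a15: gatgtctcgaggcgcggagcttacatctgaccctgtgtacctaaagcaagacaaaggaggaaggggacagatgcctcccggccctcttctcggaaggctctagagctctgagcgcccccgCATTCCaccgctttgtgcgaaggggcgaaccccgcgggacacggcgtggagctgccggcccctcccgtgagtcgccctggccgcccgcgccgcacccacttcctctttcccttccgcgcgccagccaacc
Where the table lists several starts for a gene, the gene was counted if any window held a match. Each window shown holds 1 match, and the other 2 windows listed for Slc25a25 hold none. The 8 members that fell and held a match were Slc11a1, Slc17a1, Slc17a2, Slc20a1, Slc22a27, Slc27a1, Slc36a1 and Slc43a2. For Slc20a1, 1 window held 3 matches, more than any window shown. Of the members not called in WT, 14 of 90 (15.6%) held a match. Among others that fell, Slc25a47, Slc7a11 and Slc3a2 hold none in this window. Whether these shares differ was not tested. A window of this size leaves out distant enhancers, and the letters do not show binding.

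The second question was how loss of Yap and Taz changed the members at a given stiffness. On the soft hydrogel 10 members (5.56%) were higher and 14 (7.78%) lower in knockout than in WT cells, where all genes gave 2.02% higher and 4.65% lower. The members' median log2 fold change was -0.0034. On the stiff hydrogel 49 (27.2%) were higher and 18 (10%) lower, where all genes gave 13.7% higher and 15% lower, and the median was 0.15 against 0.011 for all genes. This comparison uses the same WT stiff libraries as the stiffness comparison in WT, so values are given side by side and no overlap is drawn from them. The summed level of the members was 12452 ± 25.6 CPM (SD, n = 2) in knockout soft and 12746 ± 185 CPM in knockout stiff cells, both above the WT sums given earlier.

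The 3 members that were most raised by the knockout on the stiff hydrogel were Slc7a11 (log2 fold change 2.57, SE 0.0428), Slc2a4 (2.36, SE 0.26) and Slc25a47 (2.29, SE 0.0491) among those with a mean of at least 100 counts. On the soft hydrogel the same 3 stood at 0.53, 0.73 and 0.77, all called. The others called higher on soft were Slc17a3 (0.67), the borate and proton transporter relative Slc4a11 (0.62), Slc20a1 (0.59, partly shared), Slc3a2 (0.58), Slc1a4 (0.57), the magnesium transporter relative Slc41a3 (0.52) and Slc10a2 (0.51). Both chains of the cystine exchanger were higher in the knockout on either hydrogel.

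The members most lowered by the knockout on the stiff hydrogel, at a mean of at least 100 counts, were Slc25a24 (-1.65, SE 0.0641), Slc31a2 (-1.64, SE 0.10) and Slc25a25 (-1.61, SE 0.10). On the soft hydrogel they stood at -0.41, -0.45 and -0.64, and only the last was called. Slc6a6 was lower by 1.15 on stiff and had a log2 fold change of -0.35, not called, on soft.

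Some members differed by genotype and were not called for stiffness in either genotype. Slc26a1, a sulphate and oxalate exchanger, was at 132 and 145 CPM in WT soft, 131 and 125 in WT stiff, 85.7 and 84.8 in knockout soft and 91.0 and 89.2 in knockout stiff libraries, with every knockout value below every WT value. The knockout was lower by 0.70 (SE 0.0544) on soft and by 0.51 (SE 0.0547) on stiff hydrogels. Slc3a1, the heavy chain of the cystine and dibasic amino acid exchanger known from kidney, was at 14.9 and 14.3 CPM in WT soft, 19.1 and 19.8 in WT stiff, 7.34 and 7.66 in knockout soft and 7.31 and 7.66 in knockout stiff libraries. It was lower in the knockout by 0.97 on soft and 1.38 on stiff hydrogels, and 26.5% of its exon bases overlap Prepl on the other strand, so its level is less certain. Slc25a30 was lower by 0.52 and 0.70, and Slc4a11 was higher by 0.62 and 0.95.

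Slc27a2, Slc10a5, Slc23a1 and Slc46a3 were lower in the knockout on soft hydrogel (-0.55, -0.87, -0.64 and -0.72) and lower on stiff than on soft in WT. On the stiff hydrogel the knockout stood at 0.49, 0.81, 0.27 and 0.09 relative to WT, of which only that of Slc10a5 was called. The remaining members called lower in the knockout on soft were Slc43a1 (-1.28), Slc7a6 (-1.18), Slc38a3 (-0.73), Slc10a3 (-0.61), Slc7a7 (-0.54) and Slc44a2 (-0.51); Slc10a3 and Slc7a7 overlap neighbouring genes. Slc46a3 and Slc10a5 were at a mean of under 100 counts, as were Slc43a1 and Slc7a6.

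Other members were called by genotype on the stiff hydrogel and neither on the soft hydrogel nor for stiffness in WT. How many of all genes show this pattern was not counted. The fold threshold shapes the group. Slc40a1 (-0.35) and Slc6a8 (-0.43) were lower on stiff in WT at adjusted p under 0.05 by edgeR. Slc2a9 stood at 0.501 between genotypes on the stiff hydrogel. Slc48a1, which brings haem out of lysosomes, was at 483 and 501 CPM in WT soft, 399 and 402 in WT stiff, 591 and 595 in knockout soft and 646 and 597 in knockout stiff libraries. The knockout exceeded WT by 0.63 (SE 0.0409, adjusted p = 2.83e-10 by edgeR) on stiff and by 0.27 on soft hydrogels. Ferroportin (Slc40a1), the iron exporter, was at 125 and 119.7 CPM in WT soft, 95.6 and 97.2 in WT stiff, 143 and 139.5 in knockout soft and 148 and 155 in knockout stiff libraries, with WT stiff lowest and a difference of 0.65 (SE 0.0495) on stiff. Ferroportin is also abundant in Kupffer cells, whose markers, given above, were higher in the knockout; their part in its values was not tested. The zinc, manganese and iron importer Slc39a8 (0.63), Slc25a39 (0.52), the fructose transporter Slc2a5 (0.92), Slc6a8 (0.66), Slc39a3 (0.53), Slc12a9 (0.56), Slc49a4 (0.62) and Slc2a9 (0.50) were higher in the knockout on stiff in the same way. The potassium and chloride cotransporter Slc12a4 (-0.69), Slc45a3 (-0.62, partly shared) and the nucleoside transporter Slc29a2 (-0.83) were lower there.

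Of 49 transport genes outside the naming rule, 44 were tested, with none called by edgeR between hydrogels in the knockout. On the stiff hydrogel in WT cells 14 were lower and 4 higher, where all genes gave 9.26% lower and 10% higher. The 4 higher were thus close to the share of all genes. Those that fell included the canalicular pumps Abcc2 for conjugates (-1.44) and Abcb4 for phosphatidylcholine (-1.75), the basolateral pump Abcc4 (-1.39), the organic anion uptake carriers Slco1b2 (-1.07) and Slco1a1 (-1.23), and the water and glycerol channel Aqp9 (-0.99). The 4 that rose were the serine carrier relative Sfxn3 (1.56), the pump Abcg2 (1.33), the prostaglandin carrier Slco2a1 (1.02) and the lipid transporter Mfsd2a (0.55). Knockout against WT gave 3 higher and 6 lower on soft, and 14 higher and 7 lower on stiff hydrogels. All genes gave 2.02% higher and 4.65% lower on soft, and 13.7% higher and 15% lower on stiff. The 7 lower on stiff were close to the share of all genes.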

How the data were processed

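Poly(A) RNA of 8 libraries was sequenced as paired 150-base reads. The authors aligned reads with HISAT2 2.0.5 and deposited raw counts per gene from featureCounts; the strand setting and annotation release are not given in the sources used here. The submitters' processing notes list build mm9, the table names none, and its positions were not used. Counts were filtered (filterByExpr), scaled (TMM) and fitted with 1 term per group in edgeR 4.0.16 (quasi-likelihood test, 4 residual degrees of freedom, R 4.3.3), with the test checked on simulated counts. RPKM used the table's gene lengths. A member was marked uncertain where at least 5% of its 64-base windows occur in another gene, or at least 5% of its exon bases overlap a gene with at least 10% of its count. Substrate classes, the members and all lists were chosen with earlier results of these data known. Members described were the largest rises and falls in WT per class and overall and by genotype on each hydrogel (mean of at least 100 counts, no overlap), a liver transporter list, the 10 of highest RPKM and those at the minimum; the others named complete the calls of a class and were chosen after their values were seen. Some genes are counted in the totals but not reported here. Alternatives were DESeq2 1.42.0, other scalings, filters and thresholds, a replicate block and leaving out each library. Promoters came from a RefSeq table matched by symbol (135 of 180 members).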

Additional observations from a re-analysis of the deposited data

Results flagged for a closer look

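Among the members named by rule, 31 are given here for which the stiffness response differed between genotypes by the interaction term (edgeR's quasi-likelihood test, adjusted over 14279 genes, adjusted p from 3.42e-14 to 0.046). Each value below is the knockout response minus the WT response in log2 units. The knockout responses of all 180 members lay between -0.32 and 0.47. Slc10a5, Slc22a30, Slc30a10, Slc30a1, Slc20a1 and Slc27a2 share sequence with other genes, so their values are less certain. Slc10a5 and Slc22a30 also passed the minimum mean count only through the group where they were high, as described at the start.

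Among amino acid transporters the value was 2.04 for Slc7a11, 1.63 for Slc16a10, 0.70 for Slc38a4, 0.67 for Slc3a2 and 0.63 for Slc1a4. Among organic ion and bile acid transporters it was 1.73 for Slc10a2, 1.68 for Slc10a5, 1.58 for Slc17a4, 0.59 for Slc17a3 and -1.19 for Slc22a30. Mitochondrial carriers gave 1.52 for Slc25a47, 0.54 for Slc25a15, -1.24 for Slc25a24, -1.11 for Slc25a4 and -0.97 for Slc25a25. Metal ion transporters gave 1.20 for Slc30a10, 0.69 for Slc30a1, 0.65 for Slc39a14 and -1.19 for Slc31a2. Sugar and creatine transporters gave 1.63 for Slc2a4, 0.82 for Slc37a4, 0.95 for Slc16a12 and 0.57 for Slc6a8, and the other amine and osmolyte transporters gave 1.51 for Slc18a1 and -0.80 for Slc6a6. The value was 1.03 for the fatty acid transporter Slc27a2, -1.02 for the choline transporter Slc44a2, 0.65 for the phosphate transporter Slc20a1 and 0.90 for the ascorbate transporter Slc23a1. Of the unassigned members Slc22a23 gave 0.65 and Slc22a15 gave -1.04.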

How the results depend on the processing

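The counts of members called stayed within 1.5 times the values above under DESeq2, other scalings and filters, robust estimation, fits of only the libraries compared, a mean of at least 100 counts, and without each library, where WT stiff against soft gave 9 to 13 higher and 37 to 44 lower. The knockout stiffness comparison had 0 calls in all of these. The fold threshold moved the counts. Above an absolute log2 fold change of 1, WT stiff against soft gave 6 higher and 12 lower, knockout against WT gave 0 higher and 2 lower on soft and 21 higher and 9 lower on stiff, and the interaction 14 above 0. With no minimum fold these were 25 and 76, 25 and 32, 80 and 33, and 70. Replicate numbers did not pair the libraries (correlations of deviations from the group means from -0.32 to 0.11 over 9039 genes), and with a replicate block WT stiff against soft gave 12 higher and 44 lower and the interaction 43 above 0. Of the 56 members called in WT, 13 lost the call in 1 to 4 of 16 settings and none changed sign. Members not called were followed only where named by rule. Of these 38, Slc22a7 (-0.83) and Slc33a1 (-0.51) gained a call without 1 WT soft library, and 6 changed sign when 1 library was left out, the range over single libraries left out being -0.097 to 0.094 for Slc12a2, -0.15 to 0.35 for Slc37a2, -0.055 to 0.12 for Slc27a4, -0.010 to 0.071 for Slc46a1, -0.26 to 0.086 for Slc5a6 and -0.022 to 0.024 for Slc25a1, which also stood at 0.0067 with no filter and at 0.0079 under DESeq2. The values without 1 WT library past 0 were 0.094 and 0.054 for Slc12a2, -0.15 and -0.12 for Slc37a2, and 0.020 and 0.024 for Slc25a1; the cause was not tested. With 2 libraries a group, members of few CPM had the widest errors (SE 0.34 for Slc6a19, the highest in WT).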
